A study of Mus musculus with 20 samples.

Results

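Axin2, Lgr5, Znrf3, Apcdd1, Nkd1, Lef1 and Tcf7 are widely used as readouts of Wnt/β-catenin signalling, because the pathway raises their transcription in many tissues and most of their products feed back on it. The 7 genes were taken from a list of symbols. Of these, 6 had a row annotated to their symbol in the deposited table, and all 6 were measured after the filter on missing values, among 17051 genes measured and 19087 with a row. Tcf7 had no row annotated to it in the annotation used here, so no value is given for it. Axin2 had 1 row, Znrf3 1, Nkd1 1, Lgr5 2, of which 1 was kept, Apcdd1 3, of which 2 were kept, and Lef1 3, all kept.

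In the canonical Wnt pathway, secreted Wnt proteins bind Frizzled receptors and the coreceptors Lrp5 and Lrp6. This stops a cytoplasmic complex built on Axin and Apc from marking β-catenin for destruction, and β-catenin then enters the nucleus and activates genes together with TCF/LEF proteins. In the lung, Wnt signalling takes part in budding of the early endoderm and in the maintenance and renewal of alveolar type II cells, which make surfactant.

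The cells were MLE12, a type II-like lung epithelial line from mouse that carries the SV40 large T antigen. They were transfected by lipofection with NICD1-pIRES-DsRed2, a plasmid that encodes the intracellular domain of Notch1 together with a red fluorescent protein, or with the empty vector, and RNA was taken 12, 24 or 48 h later. Each dual-colour array set NICD1 RNA against empty vector RNA of the same time, and there were 6 such arrays for 12 h, 7 for 24 h and 7 for 48 h, each from an independent replicate per the series design. NICD1 RNA carried Cy5 on 3 of 6, 3 of 7 and 3 of 7 arrays, and Cy3 on the others. All samples came from this single line, and the labels do not say that transfected cells were sorted, so a ratio averages over the cells of a dish. In such bulk RNA, fewer cells with a transcript and less transcript per cell cannot be told apart.

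All values are log2 ratios of NICD1 over empty vector, so that 1 is a doubling and a value above 0 means more RNA with NICD1. A ratio gives no level, and single-channel intensities were not analysed here. Whether a member or a marker was expressed at all, or more strongly than another gene, therefore could not be judged. A gene passed the test when its adjusted p in the linear model was under 0.05. Array 3 of 12 h and array 3 of 48 h were multiplied by -1: Nrarp, a direct target of Notch that feeds back on it, was at -1.93 and -1.58 on them as deposited and between 1.31 and 3.24 on the other 18. Hey1, another Notch target, was at -2.74 as deposited on the 48 h array but at 0.44 on the 12 h array, so that turning the latter made it -0.44, the lowest Hey1 value at 12 h. With these turned, Nrarp was fitted at 2.08 ± 0.20 (SE) at 12 h, 2.61 ± 0.19 at 24 h and 2.29 ± 0.19 at 48 h (1.79 at 48 h without the replicates 5 to 7 described next).

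The 48 h replicates 5, 6 and 7 stood apart from replicates 1 to 4. With the dye effect taken off, they correlated across genes with each other at 0.653 to 0.686, against 0.102 to 0.322 within replicates 1 to 4 and 0.0505 to 0.399 between the sets. Nothing in the labels sets these 3 arrays apart. Members at 48 h are therefore also given without them, and what their separation contributes to a result was not tested.

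At 48 h, 4 of the 6 measured members were higher with NICD1 and none lower: Axin2 (1.88-fold), Znrf3 (1.70-fold), Apcdd1 (1.45-fold) and Lgr5 (1.43-fold). Lef1 and Nkd1 did not pass. Over all genes, 14% passed as higher at 48 h, 13.8% as lower and 27.8% in either direction. The median log2 ratio of the 6 members was 0.52, against -0.01 over all genes. Without replicates 5 to 7 no member passed, at a background of 3.69% of all genes; all 6 kept the sign of their ratio. Leaving out 1 array, the count fell to 1 without 48 h replicate 6 and to 2 without 48 h replicate 5 or 7. Over all genes, the count at 48 h also varied over these fits, from 2992 to 5343, against 4747 with all arrays.

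At 12 and 24 h no member passed. The background was low at both times, at 0.282% of genes at 12 h and 1.67% at 24 h. Median ratios of the members were 0.09 and 0.09, against 0.00 and 0.01 over all genes. Nrarp passed at 12 h (adjusted p = 6.68e-06) and 24 h (adjusted p = 1.45e-08). Its 12 h and 48 h values are not independent of the turning, since the signs of both turned arrays were judged from Nrarp. It passed at 12 h in all 20 fits that left out 1 array, at 1.96 to 2.16. Only the fit without array 3 of 12 h is free of a turned array at that time. Of the 4 Notch targets followed (Nrarp, Hes1, Hey1 and Heyl), 2 passed as higher at 12 h, 4 at 24 h and 3 at 48 h. Without the 2 turned arrays the counts were 1, 4 and 3. With each time fitted alone they were 1, 2 and 3.

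**Figure D1:**
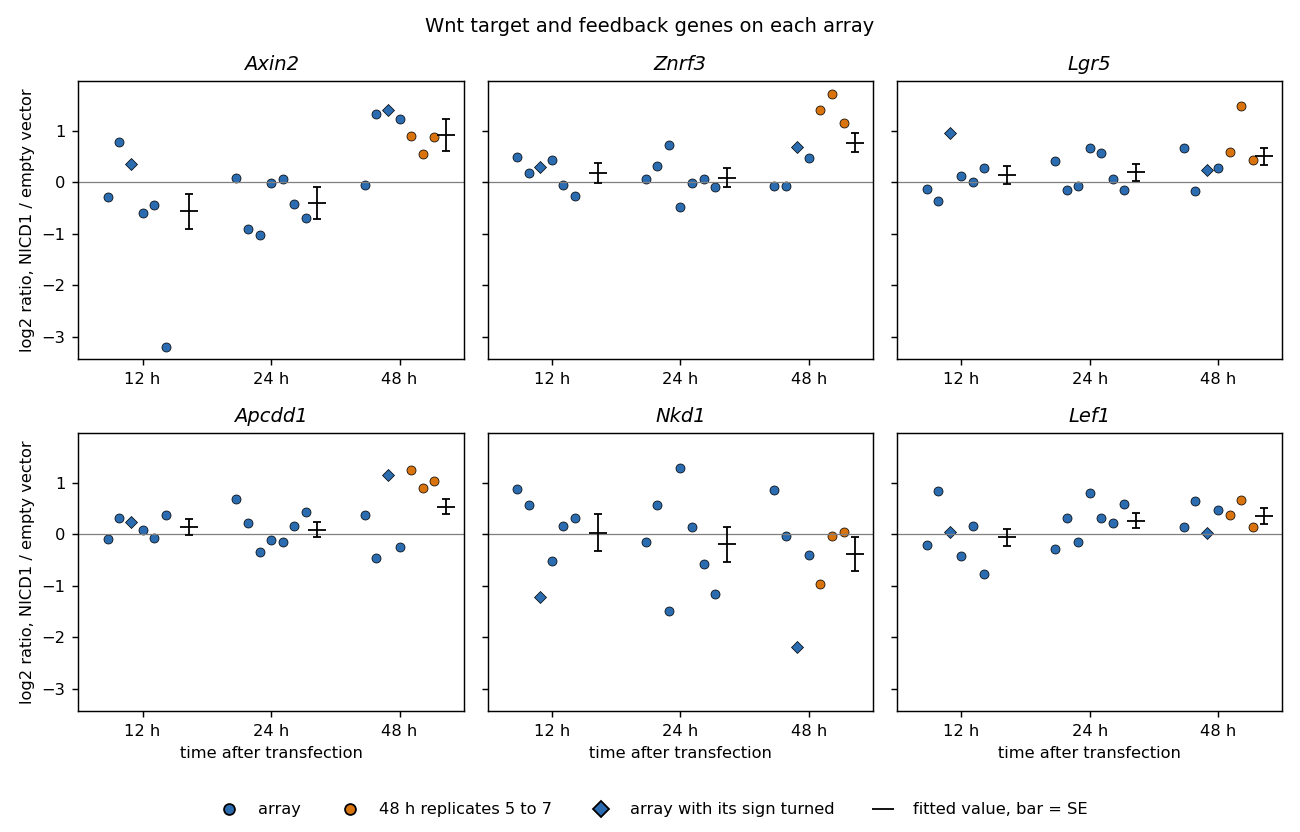
Log2 ratio of NICD1 over empty vector (vertical axis) for each measured member on every array, by hours after transfection, with 48 h replicates 5, 6 and 7 marked apart. Znrf3 and Apcdd1 lie highest on replicates 5 to 7, between 0.89 and 1.73, with Apcdd1 also at 1.14 on replicate 3, while Axin2 reaches 1.24 to 1.41 on replicates 2, 3 and 4 and -3.19 on 12 h replicate 6.

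At the cell surface, Lgr5 (Entrez Gene 14160, chromosome 10) is a receptor for R-spondins and marks stem cells in several epithelia. Its ratio ran from -0.36 to 0.96 at 12 h with a median of 0.07, and from -0.15 to 0.66 at 24 h with a median of 0.07. At 48 h replicates 1 to 4 stood at 0.67, -0.16, 0.25 and 0.28, and replicates 5 to 7 at 0.59, 1.49 and 0.44. Lgr5 was thus above 0 on 6 of 7 arrays at 48 h, and its highest value, on replicate 6, exceeded every value at the earlier times, whereas the others overlapped with them. The fitted ratio at 48 h was 0.51 ± 0.17 (SE, n = 7; adjusted p = 0.0274). It was 0.33 (adjusted p = 0.156) without replicate 6, and it also missed the threshold without replicate 1, 5 or 7. Without replicates 5 to 7 together it was 0.26 (adjusted p = 0.50). A further row annotated to Lgr5 had values on only 5 arrays, from -0.46 to 2.30, and was not used.

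Znrf3 (Entrez Gene 407821, chromosome 11) encodes a membrane E3 ubiquitin ligase that removes Frizzled receptors from the surface, and R-spondins bound to Lgr receptors hold it in check. It had the smallest adjusted p of the members at 48 h. Its ratio ranged from -0.26 to 0.50 at 12 h (median 0.24) and from -0.48 to 0.73 at 24 h (median 0.06). At 48 h replicates 1 to 4 were at -0.08, -0.06, 0.68 and 0.47, and replicates 5 to 7 at 1.40, 1.73 and 1.15. The latter 3 lay above every other Znrf3 value of the study, while replicates 1 to 4 lay within the range of the earlier arrays. The fitted ratio was 0.77 ± 0.18 (SE, n = 7; adjusted p = 0.00441). Znrf3 passed in all 20 fits that left out 1 array, at 0.60 to 0.94, but was at 0.25 (adjusted p = 0.435) without replicates 5 to 7. The mean was 0.25 ± 0.38 (SD, n = 4) on replicates 1 to 4 and 1.43 ± 0.29 (SD, n = 3) on replicates 5 to 7.

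Apcdd1 (Entrez Gene 494504, chromosome 18) encodes a membrane glycoprotein that binds Wnt and LRP proteins and inhibits signalling at the receptor. Its ratio, the mean of 2 rows, lay between -0.09 and 0.37 at 12 h (median 0.16) and between -0.35 and 0.68 at 24 h (median 0.16). At 48 h it was 0.37, -0.46, 1.14 and -0.24 on replicates 1 to 4 and 1.24, 0.89 and 1.04 on replicates 5 to 7. Replicate 3 and replicates 5 to 7 exceeded all earlier arrays, and replicates 2 and 4 were below 0. The fitted ratio was 0.53 ± 0.15 (SE, n = 7; adjusted p = 0.0113). It missed the threshold when replicate 6 was left out (0.41, adjusted p = 0.0683) and without replicates 5 to 7 (0.20, adjusted p = 0.540).

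The rows of Apcdd1 differed from each other. In the fit per row, in which 12.5% of 37340 rows passed as higher at 48 h, the first kept row was at 0.82 ± 0.14 (adjusted p = 0.000552) and above 0 on 7 of 7 arrays, from 0.19 to 1.47, with a mean of 0.41 ± 0.25 (SD, n = 4) on replicates 1 to 4 and 1.34 ± 0.16 (SD, n = 3) on replicates 5 to 7. The second kept row was at 0.23 ± 0.23 (adjusted p = 0.531) and spread from -1.61 to 2.09. The remaining row, with 3 values at 12 h and so below the filter, had a median of 0.11 at 48 h and values of 0.26 to 0.79 on replicates 5 to 7. Probe positions along the transcript were not used here, so rows were not assigned to isoforms.

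**Figure D2:**
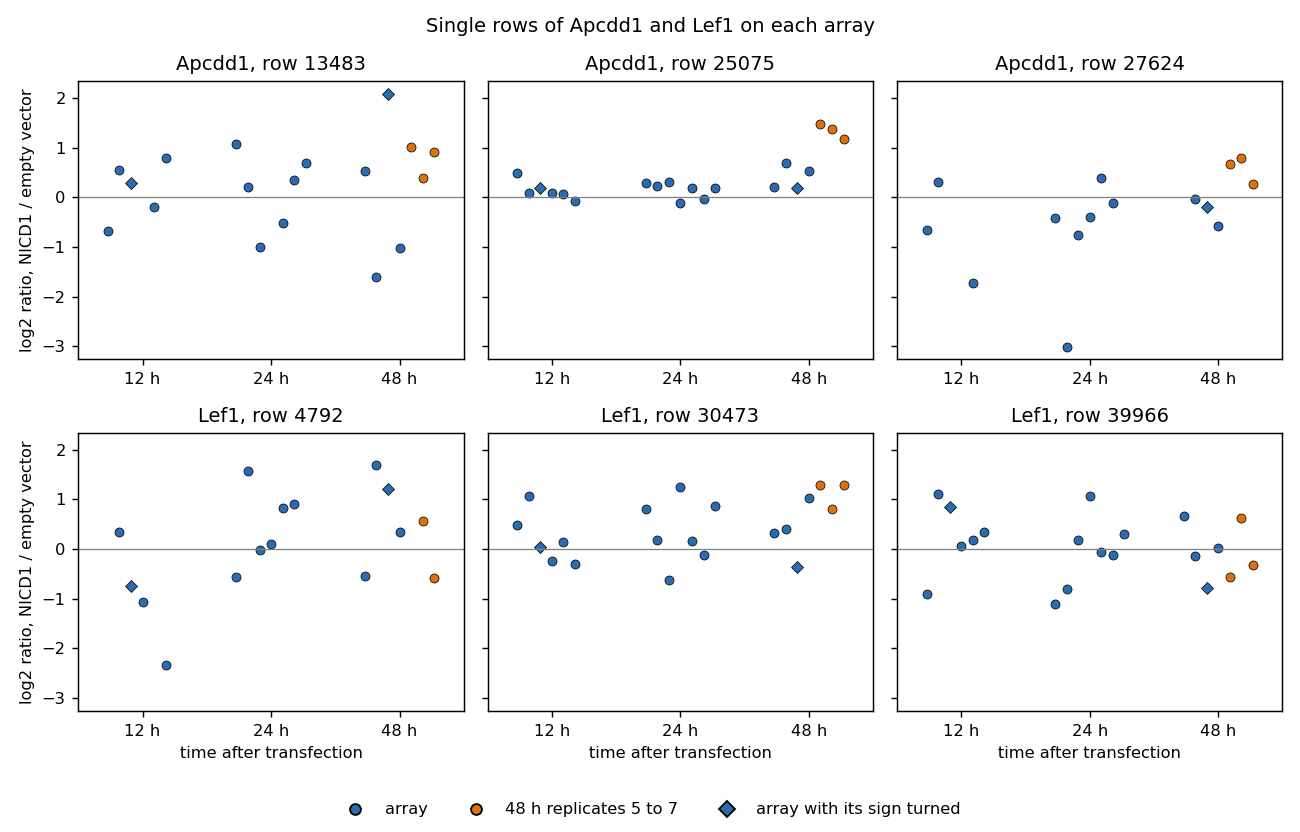
Log2 ratio (vertical axis) of each single row of Apcdd1 and Lef1, on every array by hours after transfection. For Apcdd1, 1 row lies between 0.19 and 1.47 at 48 h and another between -1.61 and 2.09.

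Axin2 (Entrez Gene 12006, chromosome 11) encodes a scaffold of the β-catenin destruction complex and is among the most general feedback targets of the pathway. The 250 bases before its start in RefSeq, at chr11:108920099-108920348 (+) of GRCm38.p6, are shown because Axin2 had the largest fitted ratio of the members at 48 h and no letters of the TCF/LEF or RBPJ motifs described below occur in them.
Axin2: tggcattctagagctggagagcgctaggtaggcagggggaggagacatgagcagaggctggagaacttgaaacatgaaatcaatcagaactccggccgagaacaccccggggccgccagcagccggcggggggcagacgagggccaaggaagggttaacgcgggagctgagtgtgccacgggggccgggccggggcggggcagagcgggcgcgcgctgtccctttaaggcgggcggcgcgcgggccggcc

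The Axin2 ratio at 12 h was -0.28, 0.79, 0.35, -0.60, -0.45 and -3.19 on replicates 1 to 6, with a median of -0.36. At 24 h it ran from -1.02 to 0.09, with a median of -0.42, and 5 of 7 arrays were below 0. At 48 h replicates 1 to 4 were at -0.05, 1.33, 1.41 and 1.24, and replicates 5 to 7 at 0.90, 0.56 and 0.89. So 5 of the 7 arrays at 48 h lay above all earlier Axin2 values, replicate 1 was near 0, and replicates 5 to 7 were not the highest. The fitted ratio was 0.91 ± 0.31 at 48 h (SE, n = 7; adjusted p = 0.0343), with a 95% interval from 0.26 to 1.56.

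Axin2 differed from the other 3 higher members in how its ratio depended on the 48 h arrays. It was 0.98 without replicates 5 to 7 (adjusted p = 0.238) and 0.80 with only those 3 at 48 h (adjusted p = 0.267), so the size was alike with either set and the call was made with neither. It also missed the threshold when any 1 of 48 h replicates 2 to 7 was left out (adjusted p = 0.0538 to 0.0776). Without 12 h replicate 6, where the ratio was -3.19, the 48 h value was 0.89 ± 0.19 (adjusted p = 0.00292), since the model shares 1 variance per gene over the times.

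Nkd1 (Entrez Gene 93960, chromosome 8) encodes a cytoplasmic protein that binds Dishevelled and dampens the Wnt signal. Its arrays spread widely at every time, from -1.23 to 0.89 at 12 h (median 0.23) and from -1.50 to 1.28 at 24 h (median -0.16). At 48 h replicates 1 to 4 were at 0.86, -0.04, -2.20 and -0.40, and replicates 5 to 7 at -0.97, -0.04 and 0.03. The times overlapped, and only replicate 3, an array that had been turned, was outside the earlier range. The fitted ratio was -0.39 ± 0.33 at 48 h (adjusted p = 0.434), with a 95% interval from -1.09 to 0.31. It was -0.09 without both turned arrays and -0.45 without replicates 5 to 7 (adjusted p = 0.662).

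Lef1 (Entrez Gene 16842, chromosome 3) encodes a TCF/LEF transcription factor that partners with β-catenin and is itself a Wnt target. RefSeq starts of Lef1 gave 4 windows of 250 bases. The window at chr3:131156044-131156293 (+) of GRCm38.p6 is shown because it was the only window of any matched member with a TCF/LEF motif. The capitals mark TACAAAG, which reads CTTTGTA on the opposite strand and lies 147 to 141 bases before the start.
Lef1: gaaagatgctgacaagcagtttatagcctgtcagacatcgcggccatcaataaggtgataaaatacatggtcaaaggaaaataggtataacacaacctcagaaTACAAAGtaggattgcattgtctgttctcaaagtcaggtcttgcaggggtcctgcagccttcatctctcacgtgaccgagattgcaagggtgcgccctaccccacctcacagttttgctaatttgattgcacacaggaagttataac

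Motifs were searched in the windows of Axin2, Nkd1, Lef1 and Tcf7, on both strands. The TCF/LEF letters were CTTTGAT or CTTTGAA, or the variants CTTTGTA or CTTTGTT, and any of these occurred in 14.8% of all 32851 RefSeq windows of this length. The RBPJ letters, for the DNA-binding partner of NICD1, were GTGGGAA, which occurred in 5.42% of windows and in none of the member windows. Several member windows were searched, and the single TCF/LEF match among them was not tested against its share over all windows. These are matches of letters and not measured sites, and an absent match says only that the letters are not in that window.

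The Lef1 ratio, a mean of 3 rows, ran from -0.77 to 0.84 at 12 h (median -0.08) and from -0.29 to 0.80 at 24 h (median 0.31). At 48 h it was 0.15, 0.65, 0.02 and 0.47 on replicates 1 to 4 and 0.37, 0.66 and 0.13 on replicates 5 to 7. All 7 arrays at 48 h were above 0, and all lay within the range of the earlier arrays. The fitted ratio was 0.36 ± 0.15 at 48 h (SE, n = 7; unadjusted p = 0.031, adjusted p = 0.0918), and it was close to this without replicates 5 to 7, at 0.32 (adjusted p = 0.449). In the fit per row, 1 of the 3 rows passed, at 0.66 ± 0.22 (adjusted p = 0.0318). That row averaged 0.35 ± 0.57 (SD, n = 4) on replicates 1 to 4 and 1.12 ± 0.28 (SD, n = 3) on replicates 5 to 7. The other rows were at 0.45 ± 0.33 (adjusted p = 0.380) and -0.08 ± 0.24 (adjusted p = 0.866).

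**Figure D3:**
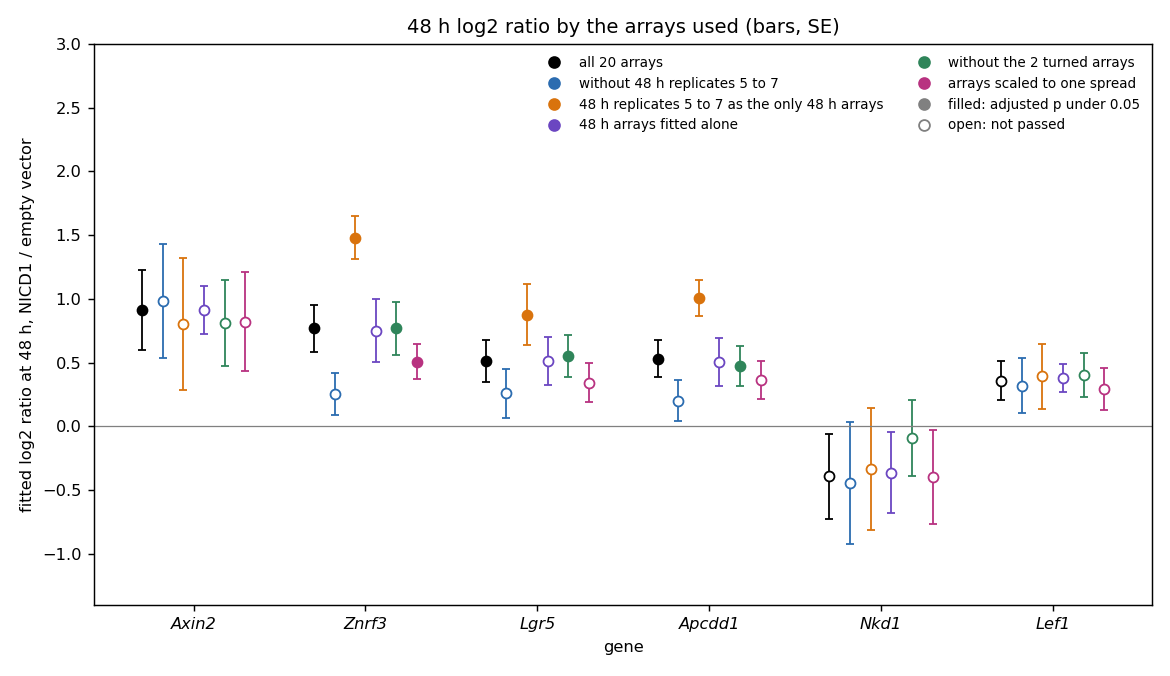
Fitted log2 ratio at 48 h (vertical axis) with its standard error for each measured member, from all 20 arrays and under other choices of arrays or scaling. Znrf3 moves from 0.77 with all arrays to 0.25 without replicates 5 to 7, whereas Axin2 moves from 0.91 to 0.98.

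The set of replicates 5 to 7 was also fitted as the only 48 h arrays, a choice made after seeing the data. Then Znrf3 was at 1.48 (adjusted p = 6.43e-06), Apcdd1 at 1.01 (adjusted p = 5.12e-05) and Lgr5 at 0.88 (adjusted p = 0.00902), while Axin2, Lef1 and Nkd1 did not pass. In that fit 37.8% of all genes passed. The difference between the sets was not tested for any member.

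Whether the ratios changed between times was tested within the same model. From 12 to 24 h no member passed, at a background of 0.897%, and the differences ran from -0.23 for Nkd1 to 0.32 for Lef1. From 24 to 48 h none passed either, at a background of 2.05%. The Axin2 ratio differed by 1.31 ± 0.44 (adjusted p = 0.0849), that of Znrf3 by 0.67 ± 0.26 (adjusted p = 0.121) and that of Apcdd1 by 0.44 ± 0.21 (adjusted p = 0.196). A rise that passed at 48 h and not at 24 h is therefore not shown to differ between these times. From 12 to 48 h, a contrast added after seeing the data, Axin2 alone passed, with a difference of 1.47 ± 0.46 (adjusted p = 0.0495) at a background of 9.17%; without 48 h replicates 5 to 7 the difference was 1.54 (adjusted p = 0.199). It passed in 2 of the 20 fits that left out 1 array, those without 12 h replicate 2 or 48 h replicate 1, at 0.92 to 1.80 over all of them; without 12 h replicate 6, whose ratio was -3.19, the difference was at the low end of that range and did not pass.

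Other genes of the pathway were followed through lists of textbook members. Of the R-spondins, Frizzled receptors and coreceptors, 19 of 21 listed genes were measured, and 9 were higher and none lower at 48 h, against 2 (Rspo1 and Fzd5) without replicates 5 to 7. Of all genes, 14% were higher with all arrays and 1.51% without those 3. Fzd5, a receptor gene, was at 0.85 in the latter fit (adjusted p = 0.0255) and at 0.34 with all arrays, where it did not pass (adjusted p = 0.253). The median of the list was 0.27. Rspo1 encodes R-spondin 1, a secreted ligand of Lgr receptors that relieves the action of Znrf3 on Frizzled. It was the only gene of all the Wnt lists to pass at 24 h, beside 1.67% of all genes.

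The Rspo1 ratio at 12 h was -0.23, 1.70, -0.09, -0.12, -0.15 and -0.16 on replicates 1 to 6. At 24 h it ran from 0.52 to 1.40, with all 7 arrays above 0. At 48 h it was 1.24, 1.74, 1.19 and 1.48 on replicates 1 to 4 and 1.75, 1.72 and 1.66 on replicates 5 to 7. With the exception of 12 h replicate 2, every 24 h and 48 h array lay above every 12 h array, and the 2 sets of 48 h replicates overlapped. The fitted ratio was 1.02 ± 0.17 at 24 h (SE, n = 7; 2.03-fold; adjusted p = 0.0011) and 1.53 ± 0.17 at 48 h (SE, n = 7; 2.88-fold; adjusted p = 6.65e-06). Rspo1 passed at both times in all 20 fits that left out 1 array, and at 48 h it was at 1.41 without replicates 5 to 7 (adjusted p = 0.00341). At 24 h it missed the threshold with both turned arrays as deposited (adjusted p = 0.109). Rspo1 had a single row.

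**Figure D4:**
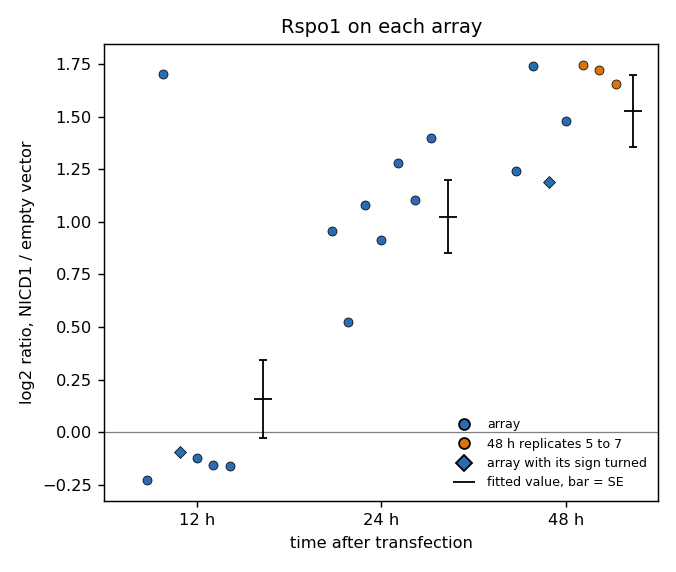
Log2 ratio of Rspo1 (vertical axis) on every array by hours after transfection, with 48 h replicates 5 to 7 marked apart. The 7 arrays at 48 h lie between 1.19 and 1.75 and the 7 at 24 h between 0.52 and 1.40, while 5 of 6 at 12 h lie between -0.23 and -0.09.

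Among the receptors, Fzd1 was at 0.70 ± 0.13 at 48 h (adjusted p = 0.000661), Fzd2 at 0.55 ± 0.14 (adjusted p = 0.00753) and the coreceptor Lrp6 at 0.86 ± 0.19 (adjusted p = 0.00244). Lrp6 stood at 2.58 on replicate 7 and between 0.24 and 1.26 on the other 6 arrays at 48 h. None of these 3 passed without replicates 5 to 7, at 0.38, 0.18 and 0.37.

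Of 24 other Wnt target and feedback genes, 18 were measured, and at 48 h 4 were higher and none lower, with a list median of 0.24. These were Fzd7, a receptor (0.30 ± 0.10, adjusted p = 0.0240), Ephb3, an ephrin receptor (0.39 ± 0.13, adjusted p = 0.0315), Tnfrsf19, a receptor of the TNF family (0.38 ± 0.13, adjusted p = 0.0360), and Myc, a growth-promoting transcription factor (0.39 ± 0.14, adjusted p = 0.0379). Without replicates 5 to 7, none of the 18 passed, and Ephb3 was at -0.01, Myc at 0.02, Fzd7 at 0.04 and Tnfrsf19 at 0.29. The count ran from 0 to 8 on leaving out 1 array: it was 0 without 48 h replicate 5 or 7, 1 without replicate 6, 7 without replicate 2 and 8 without replicate 3. The share of this list that passed as higher, 4 of 18, stood beside 14% of all genes. Fzd7 is also counted among the receptors.

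Of 21 genes for Wnt ligands and their secretion, 20 were measured, with 2 higher and 1 lower at 48 h and none passing without replicates 5 to 7. The 3 of 20 that passed stood beside 27.8% of all genes, and 1 passed when only replicate 6 was left out. The ligand genes Wnt10a (0.69 ± 0.18, adjusted p = 0.00796) and Wnt6 (0.46 ± 0.10, adjusted p = 0.00298) were higher, and Wnt4 was lower (-0.35 ± 0.09, adjusted p = 0.00987). Of 14 secreted inhibitors, 8 were measured and 1 was higher at 48 h, beside 14% of all genes higher. That gene was Sfrp2, which encodes a soluble Frizzled-related protein (0.69 ± 0.14, adjusted p = 0.00193). It did not pass without replicates 5 to 7, and 2 of the 8 passed when only 48 h replicate 5 was left out.

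Sost, which encodes the Lrp-binding inhibitor sclerostin, was the only gene of the Wnt lists to pass at 12 h, beside 0.282% of all genes. Its ratio was -0.89 ± 0.15 (SE, n = 6; adjusted p = 0.00628), below 0 on 6 of 6 arrays, from -1.73 to -0.37. The 2 rows of Sost did not move together: 1 was at -1.77 ± 0.19 at 12 h (adjusted p = 3.69e-05) and the other at -0.01 ± 0.21. Sost did not pass with 12 h fitted alone (adjusted p = 0.124), without 12 h replicate 3 (adjusted p = 0.0503), with both turned arrays as deposited (-0.31, adjusted p = 0.999) or when only the row with the most values was used.

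Inside the cell, all 17 listed genes of the destruction complex and Dishevelled were measured, and 6 were higher and none lower at 48 h, beside 14% of all genes higher. The count fell to 3 when 48 h replicate 5, 6 or 7 was left out. Csnk1e, a casein kinase 1 gene, was at 0.73 ± 0.09 (adjusted p = 1.88e-05) and was the only gene of this list to pass without replicates 5 to 7 (0.58, adjusted p = 0.00546). Apc, the tumour suppressor scaffold of the complex, was at 0.43 ± 0.09 (adjusted p = 0.00255), the kinase gene Csnk1d at 0.35 ± 0.09 (adjusted p = 0.00535), and Tnks2, a tankyrase that marks Axin for degradation, at 0.50 ± 0.15 (adjusted p = 0.0160).

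Of the 15 listed nuclear partners and corepressors, all were measured, and 6 were higher and 1 lower at 48 h, beside 14% and 13.8% of all genes, with a list median of 0.39. Tcf7l1, a TCF/LEF factor that mostly represses, was at 0.95 ± 0.18 (adjusted p = 0.000862); replicates 5 to 7 stood at 1.55 to 2.24 and replicates 1 to 4 at 0.17 to 0.49. Among the Groucho corepressor genes, Tle2 was at 0.81 ± 0.14 (adjusted p = 0.000482), Tle4 at 0.74 ± 0.15 (adjusted p = 0.00151) and Tle1 at 0.46 ± 0.10 (adjusted p = 0.00190). Cby1 and Ctnnbip1 both encode proteins that bind β-catenin and inhibit it: Cby1 was the gene that was lower (-0.37 ± 0.13, adjusted p = 0.0432), and Ctnnbip1 was higher (0.66 ± 0.14, adjusted p = 0.00248). Without replicates 5 to 7 they were at 0.0024 and 0.20. Without replicates 5 to 7, Tcf7l1 (0.37, adjusted p = 0.0374) and Tle2 (0.68, adjusted p = 0.0309) passed and the others of the list did not.

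**Figure D5:**
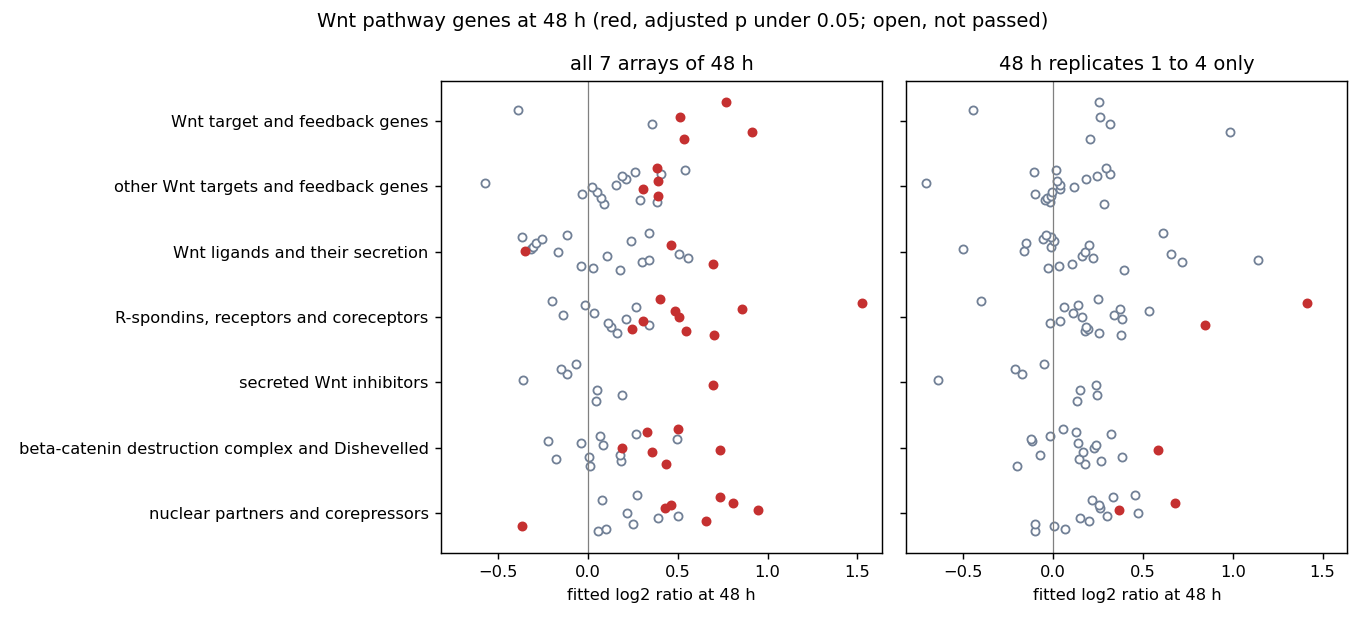
Fitted log2 ratio at 48 h (horizontal axis) of the measured genes of each Wnt pathway list, with those that passed at adjusted p under 0.05 marked. The panels use all 7 arrays of 48 h and replicates 1 to 4 only. With all 7, values above 0 outnumber those below 0 among members (5 of 6), other targets (16 of 18) and receptors (16 of 19). They also do in the destruction complex (14 of 17) and nuclear partners (14 of 15). The lists of ligands (11 of 20) and secreted inhibitors (4 of 8) are more even. The share above 0 over all genes was not counted.

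Markers of other cell types were followed beside these results, as ratios only. Of the measured lymphocyte (7), macrophage (4) and endothelial (5) markers none passed at any time. Of 6 fibroblast markers only Col1a1 passed, at 48 h (1.10 ± 0.15, adjusted p = 5.30e-05). It was at 0.80 without replicates 5 to 7 (adjusted p = 0.0158). Beside these counts, 0.282% of all genes passed at 12 h, 1.67% at 24 h and 27.8% at 48 h. Leaving out 1 array, 1 macrophage marker passed at 48 h without 12 h replicate 1, 24 h replicate 2, 3 or 6, or 48 h replicate 4, and 2 fibroblast markers passed without 48 h replicate 3. Of 10 measured alveolar type II and epithelial markers, 4 were higher and none lower at 48 h, beside 14% of all genes higher, led by Abca3, the lamellar body lipid transporter (0.43 ± 0.11, adjusted p = 0.00602), with Krt8 at 0.45, Nkx2-1 at 0.32 and Etv5 at 0.31. Sftpc, the surfactant protein C gene, was at -0.38, Krt18 at -0.25 and Epcam at -0.16, and these 3 did not pass. Without replicates 5 to 7 none of the 4 higher markers passed, and Krt18, a keratin gene, passed as lower (-0.50, adjusted p = 0.0216). Nkx2-1 passed in only 9 of the 20 fits that left out 1 array. With arrays scaled to the same spread none of the 10 markers passed at 48 h. The part of all these markers in the ratios of the members was not tested.

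The gene whose ratio most resembled each member over 20 arrays, with the dye effect taken off, differed from member to member. Pearson's r was 0.913 for Znrf3 with Eml3, 0.809 for Apcdd1 with Mon1b, 0.875 for Lgr5 with Cdc42bpg, 0.762 for Axin2 with Csad, 0.817 for Nkd1 with Arsg and 0.715 for Lef1 with Cd96. Without the 3 arrays that stood apart it was 0.681 for Znrf3 and 0.496 for Apcdd1, but 0.787 for Axin2 and 0.832 for Lgr5. For Lef1 the next gene was Rspo1, at 0.704 with all arrays and 0.697 without those 3. These are the highest of all the correlations computed and share arrays and time points, so they describe these arrays only.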

How the data were processed

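Log2 ratios were used as deposited by the authors in a table of 45220 rows and 20 columns; the log2 scale was judged from the values. The submitters' processing notes name limma. Its version, the background correction, the normalization, the ratio direction and the rule for missing values are not given in the sources used. The medians of the columns were -0.0179 to 0.0195. Direction was judged from Nrarp, and how columns were centred is unknown. Missing values made up 14.2%, and arrays held 37041 to 40068 values each. Precision is limited by the number of arrays.

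Rows with 1 symbol in the array annotation (33653) were used. Kept rows had values on 4 or more arrays per time, and a gene was the mean of its rows, which left 17051 genes from 28799 rows. A linear model with 3 time coefficients and a dye term over all 20 arrays was fitted with limma 3.58.1 in R 4.3.3, with moderated two-sided tests and Benjamini-Hochberg adjustment over all genes at 0.05. The ± values beside fitted ratios are standard errors. The code was tested on simulated data. Alternatives covered the turned arrays, dye, array weights, scaling, row filters, the row used, each time alone, the replicate block and each array left out. The 12 to 48 h contrast and the fit with 48 h replicates 5 to 7 alone were added after seeing the data. Named were all members, the most alike genes and 4 Notch targets (Nrarp, Hes1, Hey1 and Heyl). In each pathway or marker list, genes with the smallest p among those that passed were named, up to 2 at 12 h and 4 at each later time. Fzd5, Cby1, Ctnnbip1, Sftpc, Epcam and Krt18 were named after their values were seen. The members and lists were chosen with earlier results of these data known. Chromosomes and sequences are from RefSeq (GRCm38.p6). Promoter windows matched Axin2, Nkd1, Lef1 and Tcf7.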

Additional observations from a re-analysis of the deposited data

Results flagged for a closer look

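Within each time, arrays far from the others of that time were looked for in 55 gene and time groups, of which chance marks about 1 in 20. Axin2 stood at -3.19 on 12 h replicate 6, against -0.60 to 0.79 on the other 5 arrays of that time. Rspo1 stood at 1.70 on 12 h replicate 2, against -0.23 to -0.09 on the others. Abca3 stood at -0.13 on 48 h replicate 3, an array that had been turned, against 0.29 to 0.57 on the others.

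By the test of the difference between times, Axin2 differed by 1.47 between 12 and 48 h (adjusted p = 0.0495), and this rested on single arrays as given in the report. Rspo1 differed by 1.37 ± 0.25 between 12 and 48 h (adjusted p = 0.00348). The differences from 24 to 48 h (0.50, adjusted p = 0.210) and from 12 to 24 h (0.87, adjusted p = 0.221) did not pass.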

How the results depend on the processing

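The count of members that passed at 48 h was 4 and became 0 with both turned arrays as deposited, without 48 h replicates 5 to 7, with each time fitted alone and with array weights, and 1 (Znrf3) with arrays scaled to one spread. It ranged from 1 to 5 when 1 array was left out, with 1 without 48 h replicate 6 and 2 without 48 h replicate 5 or 7. In the same fits 2992 to 5343 of all genes passed at 48 h. For 48 h against 24 h the count of members was 0 and became 1 with rows on all 20 arrays and 2 with only replicates 5 to 7 at 48 h, with 0 to 1 on leaving out 1 array. For 48 h against 12 h it was 1 and became 0 as deposited, without the turned arrays, without a dye term, without replicates 5 to 7, with weights, with scaling, with a filter of 2 arrays and with the replicate block, and 2 with rows on all 20 arrays, the row with most values or only replicates 5 to 7 (0 to 1 on leaving out 1 array). The share of all genes that passed for these contrasts was counted in the main model only. It was 2.05% for 48 h against 24 h and 9.17% for 48 h against 12 h. No member passed at 12 or 24 h, or between them, under any alternative. Same-numbered arrays did not pair: 1 of 19 pairs correlated over 0.1 (-0.132 to 0.139), and 1 of 20 arrays correlated best with its own number. With the replicate number as a block, 3 members passed at 48 h, beside 25.6% of all genes. In that fit adjusted p was 0.0518 for Axin2, 0.0339 for Lgr5, 0.0160 for Znrf3 and 0.0199 for Apcdd1. Sost at 12 h missed the threshold with the block (adjusted p = 0.0565). Of genes that passed at 48 h, Ephb3 (-0.012) and Cby1 (0.0024) turned sign without replicates 5 to 7. The turned signs that follow are of values that had not passed. With both turned arrays as deposited, Lgr5 was at -0.17 at 12 h, Nkd1 at 0.23 at 48 h and 0.44 for 48 against 24 h, and 24 against 12 h was 0.015 for Znrf3 and 0.035 for Apcdd1. Without those arrays, Lgr5 was at -0.023 at 12 h, Apcdd1 at 0.015 for 24 against 12 h and Nkd1 at 0.11 for 48 against 24 h. With array weights, 24 against 12 h was -0.034 for Lgr5 and 0.029 for Znrf3. With scaling, Apcdd1 was at 0.013 for 24 against 12 h and Lef1 at -0.0030 for 48 against 24 h. With rows on all 20 arrays, Lef1 was at 0.23 at 12 h and -0.10 for 24 against 12 h, and Apcdd1 at 0.019 for the latter, as with the row with most values, which gave Lef1 0.20 at 12 h. With the filter of 2 arrays, Apcdd1 was at -0.15 at 24 h. On leaving out 1 array, 12 h values ran from -0.020 to 0.25 for Lgr5, -0.15 to 0.30 for Nkd1 and -0.26 to 0.079 for Lef1. At 24 h they ran from -0.0078 to 0.18 for Znrf3 and -0.45 to 0.054 for Nkd1. For 24 against 12 h they ran from -0.39 to 0.49 for Axin2, -0.054 to 0.21 for Lgr5, -0.13 to 0.022 for Apcdd1 and -0.49 to 0.027 for Nkd1, and for 48 against 24 h from -0.43 to 0.12 for Nkd1. Over all genes, 4747 passed at 48 h, against 4134 with both turned arrays as deposited, 630 without replicates 5 to 7, 234 with 48 h alone, 1746 with array weights and 2925 with scaling. At 24 h it was 284, against 181 as deposited, 570 with weights and 513 with scaling, and at 12 h 48, against 0, 18 with 12 h alone and 83 with weights. The cause of these changes was not tested. The number of arrays limits what small ratios can show, and signal over background could not be judged.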
